A study of Homo sapiens with 6 samples.

Results

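HuR sites were examined on 7 abundant housekeeping mRNAs: ACTB, ACTG1, TUBB, TUBA1B, GAPDH, EEF1A1 and RPLP0. HuR, the ELAVL1 protein, was immunoprecipitated from HEK293, a human embryonic kidney cell line, after micrococcal nuclease had cut the RNA in the lysate to short fragments (DO-RIP-seq). The labels list 3 HuR samples, made with the mouse antibody 3A2, and 3 negative control samples, made with normal mouse sera. No other treatment is given. The negative controls have no values of their own here, and digested lysate was pooled before it was split over the precipitations, so an SD over the 3 HuR replicates covers technical spread only. A site is an interval on 1 strand of hg19 to which the authors gave a LOD score above 0. No source used here gives the scale of the score, and each list has its own score levels, so between lists it is compared only as a percentile of its own list. Sites were assigned to a gene when they overlapped its span on the gene's strand by at least 1 nt. The spans ran from 2896 nt for ACTG1 to 5283 nt for EEF1A1, introns included, and added up to 28917 nt. They held 25, 31 and 32 sites in HuR replicates 1, 2 and 3, of 186157, 405048 and 550681 in all. The list in which the authors combined the replicates held 47 of 658853, and its p-filtered version, limited by the authors at p 0.05, held 27 of 373845. All 7 genes had a combined site, 6 had one in at least 1 replicate and 5 had one in every replicate. By replicate, 5, 6 and 6 of the 7 genes had a site in replicates 1, 2 and 3. Of all strand-specific 5-kb windows that held a combined site, 47.3%, 71.1% and 90.8% held a site in those replicates. No list had a site on the opposite strand of any of the spans. Read depth per library is unknown, and the lists do not separate how much of a transcript was present from how much of it was bound.

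HuR is an RNA-binding protein that prefers U-rich and AU-rich stretches, found mostly in introns and 3′ untranslated regions (3′ UTRs), and it is known for stabilising mRNAs that carry them. ACTB and ACTG1 encode the cytoplasmic beta and gamma actins, the subunits of actin filaments. TUBB encodes a beta tubulin and TUBA1B an alpha tubulin, which pair to build microtubules. GAPDH is a glycolytic enzyme, EEF1A1 is the elongation factor that brings aminoacyl-tRNA to the ribosome, and RPLP0 is a protein of the large ribosomal subunit. GAPDH, ACTB and RPLP0 mRNAs serve widely as reference transcripts in expression assays. ACTB mRNA is a known HuR target.

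The mRNAs differ in the U-rich letters that HuR is known to bind, so the most U-rich 30 bases of each annotated 3′ UTR are shown first, 5′ to 3′. They come from GENCODE 29 transcripts (GRCh38), 1 per gene, chosen as the coding transcript whose genomic length was nearest to the span. T stands for U, capitals mark runs of at least 3 T, and where windows tied the one nearest the 3′ end was taken.
ACTB: ttgTTTTgTTTTggTTTTTTTTTTTTTTTT
ACTG1: ttcattcttaaTTTatgtaaggTTTTTTTT
TUBB: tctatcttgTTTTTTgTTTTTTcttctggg
TUBA1B: tcTTTTccatgtgtacctgtaataTTTTTc
GAPDH: tgaatctcccctcctcacagttgccatgta
EEF1A1: TTTgtgtgatggTTTTTaaaaaTTTTTTTT
RPLP0: ttacttcTTTaaaaagtctctggactctta
ACTB held 26 T among these 30 bases, with 1 run of 16, whereas GAPDH held 9 and no run longer than 2. ACTG1 had 19 T, TUBB 20, TUBA1B 16, EEF1A1 19 and RPLP0 13.

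Over whole 3′ UTRs, runs of U and total U content ordered the genes differently. TUBA1B had the highest U content of the 7, 37.5%, at percentile 94.8. The ACTB 3′ UTR is 600 nt long and 34.0% U, at percentile 78.0, and the motif TTTTT matched 26 times in it, or 43.3 matches per kb. Matches were counted on the mRNA strand and may overlap one another. Among 18005 protein-coding genes with a 3′ UTR of at least 100 nt, each taken by its longest coding transcript, that density stood at percentile 99.7, and the median was 4.81 per kb. TTTTT occurred at least once in 78.5% of those 3′ UTRs and ATTTA in 70.4%. The GAPDH 3′ UTR, 189 nt long, was 14.8% U, at percentile 0.78, and held neither motif. TUBB and EEF1A1 each had 8.75 TTTTT matches per kb, ACTG1 had 5.56 and TUBA1B, with a single match in 176 nt, had 5.68. RPLP0 has a 3′ UTR of only 87 nt, 27.6% U, with neither motif. ATTTA matched 5 times in the EEF1A1 3′ UTR, 2 times in that of ACTG1 and once each in those of ACTB and TUBB. A match describes letters and not a site.

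**Figure D1:**
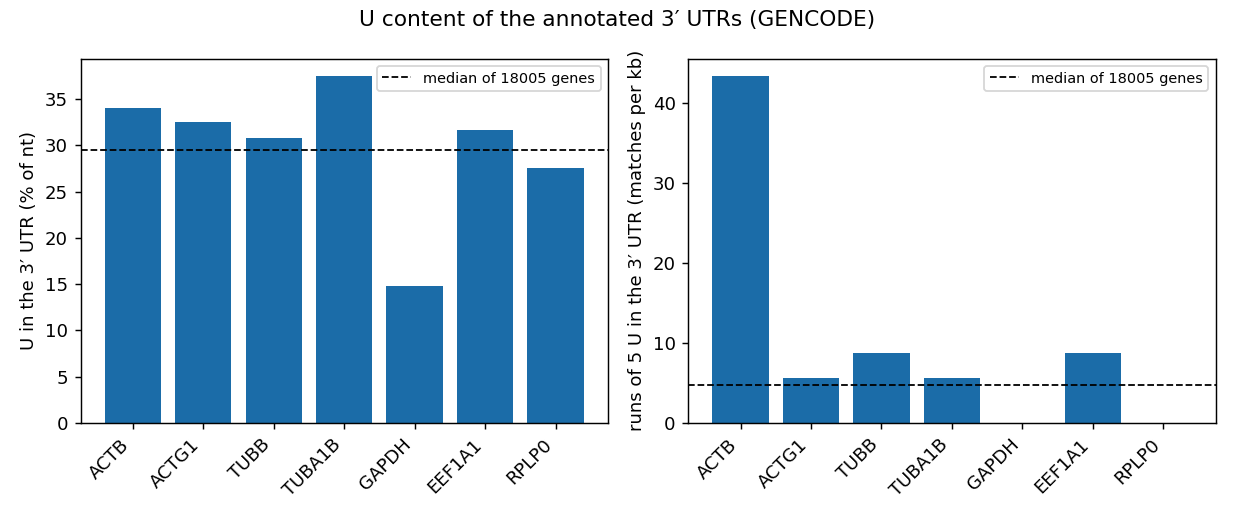
U content of the annotated 3′ UTRs of the 7 mRNAs. The left axis gives U as a percentage of nucleotides and the right axis matches to a run of 5 U per kb, with the median of 18005 protein-coding genes dashed; ACTB has the most matches at 43.3 per kb, TUBA1B the highest U content at 37.5% and GAPDH the lowest at 14.8%.

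The share of a span called as HuR site set the genes in order. EEF1A1 had 10.4%, 19.3% and 14.0% of its span called in replicates 1, 2 and 3, averaging 14.6% ± 4.48 (SD, n = 3). ACTB followed with 7.09%, 9.55% and 9.12%, a mean of 8.59% ± 1.31 (SD, n = 3). EEF1A1 lay above ACTB in all 3 replicates, by 5.99 ± 3.36 percentage points (SD, n = 3), and their ranges did not overlap. EEF1A1 also lay above ACTB in every replicate at LOD above 1, with means of 12.9% and 8.20%, and at LOD above 2, with 11.3% and 8.01%. With each replicate list limited to its 186157 highest-scoring sites the order of the means turned: EEF1A1 had 10.4%, 5.58% and 0.95% and ACTB 7.09%, 6.66% and 6.37%. ACTG1 had 5.01%, 8.29% and 6.91%, TUBB 6.74%, 6.74% and 6.64%, and RPLP0 3.74%, 9.05% and 6.42%. Their means of 6.73%, 6.71% and 6.40% were within the spread between replicates of each other. TUBA1B had 0%, 2.78% and 1.74%, below RPLP0 in all 3 replicates and with no overlap of their ranges. GAPDH had 0% in every replicate, so TUBA1B exceeded it in 2 of 3. Replicate 1, the list with the fewest sites of all, had the lowest or joint lowest share at every gene except TUBB.

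**Figure D2:**
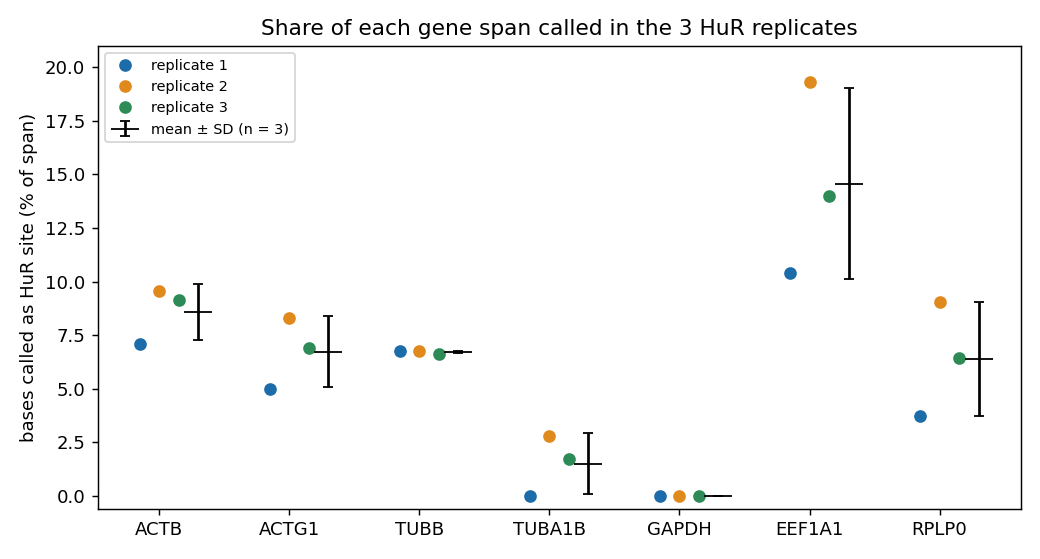
Percentage of each gene span called as HuR site in the 3 replicates (coloured points) with the mean and SD beside them (black). EEF1A1 lies highest at 10.4% to 19.3%, TUBB varies least among the genes with a site, and GAPDH is at 0% in all 3 replicates.

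Against the rest of the lists, 5 of the 7 spans were more densely covered than most windows. Among 147728 strand-specific 5-kb windows that held a combined site, the median share of bases called was 0%, 1.3% and 2% in replicates 1, 2 and 3. EEF1A1 stood at percentile 96.2 ± 2.62 of those windows (SD, n = 3), ACTB at 90.6 ± 5.28, ACTG1 at 87.1 ± 6.82, TUBB at 86.4 ± 8.71 and RPLP0 at 86.1 ± 6.50. TUBA1B stood at 46.1 ± 19.8 and GAPDH at 15.2 ± 10.9. The ranks depend on the window size, which differs from the span lengths. The median percentile over the 7 genes averaged 86.8 with 5-kb windows, 80.1 with 2-kb windows and 90.2 with 10-kb windows. With 2-kb windows ACTG1, TUBB and RPLP0 stood at 70.6, 69.6 and 68.5 in replicate 3. The windows were not chosen for expressed genes, and transcript abundance was not available, so these percentiles do not show a preference of HuR for these mRNAs.

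The ACTB sites gathered at the 3′ end of the gene. Every stretch of ACTB called in all 3 replicates, 245 nt in 3 stretches, lay between 122 and 552 nt from the 3′ end of a 3454-nt span (chr7:5566779-5570232, minus strand). Of the called bases, 100%, 93.9% and 93.7% in replicates 1, 2 and 3 fell in the 3′-most 25% of the span. The combined site chr7:5566871-5567015 had a LOD of 13.97, and its replicate scores of 8.85, 7.21 and 6.05 stood at percentiles 94.4, 92.7 and 92.9. The site chr7:5567231-5567405 had a combined LOD of 12.44 and replicate scores of 8.62, 8.17 and 6.56, at percentiles 93.4, 97.4 and 96.3. Replicate 1 thus put the first of these sites on top, whereas replicates 2 and 3 put the second there. Between them lay chr7:5567056-5567185, also found in every replicate but weaker, at percentiles 13.9, 9.34 and 9.18. The site chr7:5568176-5568220 was found in replicates 2 and 3 only, with a LOD of 0.07 in replicate 2 and 0.40 in replicate 3, and the p filter removed it.

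ACTB had 3, 5 and 5 sites in replicates 1, 2 and 3. ACTG1, whose gene encodes a closely related actin, had 3 in each, and they were differently placed. Its leading site, chr17:79477056-79477180 on the minus strand, lay 59 to 184 nt from the 3′ end and had a combined LOD of 12.57, with replicate scores at percentiles 80.8, 82.0 and 82.8. The other recurrent site, chr17:79478726-79478885, lay 1729 to 1889 nt from the 3′ end, inside the 2896-nt span. Each replicate split it into 2 sites, whose stronger one stood at percentiles 32.3, 13.5 and 55.5. Only 62.1%, 47.9% and 50% of the ACTG1 called bases fell in the 3′-most 25%, less than for ACTB in every replicate. ACTB exceeded ACTG1 in the share of span called by 2.09, 1.27 and 2.21 percentage points over replicates 1 to 3, on average 1.86 ± 0.51 (SD, n = 3). With 3 replicates, flipping signs exactly and on both sides gave p = 0.25, the smallest possible, here and for the other differences between genes tested this way.

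The tubulin genes differed more. TUBB had 3 sites found in every replicate, at both ends of a 5043-nt span (chr6:30688157-30693199, plus strand). The strongest was a narrow site near the 5′ end, chr6:30688341-30688380, with a combined LOD of 14.23 and replicate scores of 6.24, 6.95 and 5.40, at percentiles 73.2, 90.6 and 85.5. On the 5-nt grid of interval ends it began at the same position, 30688341, in the 3 replicates and in both lists combined from them. It was 35, 35 and 40 nt wide in the replicates. Near the 3′ end lay chr6:30692986-30693165, with a combined LOD of 10.39 and replicate percentiles of 45.8, 52.5 and 39.8, and chr6:30692201-30692460, with 5.10 and 28.8, 45.6 and 40.6. These 2 sites were wide, at 165, 175 and 170 nt and at 105, 130 and 125 nt in the replicates. TUBA1B had 1 site, chr12:49521571-49521680 on the minus strand, absent from replicate 1 and with scores of only 1.72 and 0.92 in replicates 2 and 3, at percentiles 5.50 and 3.27. The p-filtered list had an interval of 15 nt inside it. TUBB exceeded TUBA1B in the share of span called by 6.74, 3.96 and 4.90 percentage points, a mean of 5.20 ± 1.41 (SD, n = 3; exact sign-flip p = 0.25). With lists of equal size the mean was 2.74 points, because both wide TUBB sites left the lists of replicates 2 and 3.

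GAPDH was nearly free of HuR sites. Its span (chr12:6643585-6647537, plus strand) held no site in any replicate and none in the p-filtered list. The combined list had 1 interval, chr12:6645236-6645265, with a LOD of 1.03 at percentile 3.87 and no counterpart in a replicate. Because the lists hold only intervals scored above 0 and depth is unknown, this says that no enrichment was called there, not that HuR was absent. Copies of these genes could take or give reads, and no source used here says how the authors treated reads with several matches. RefSeq (GRCh38.p14) lists 65 pseudogenes named after GAPDH, 50 after EEF1A1, 21 after ACTG1, 14 after ACTB, 12 after RPLP0, 11 after TUBB and 0 after TUBA1B. The most and the least covered genes, EEF1A1 and GAPDH, thus had the most named copies, whose part in the counts was not tested.

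EEF1A1 carried sites along most of its span, with the called bases denser toward the 3′ end. It had 11, 13 and 14 sites in replicates 1, 2 and 3, and 8 of its 19 combined sites were found in all 3. Bases called in all 3 replicates lay between 323 and 4018 nt from the 3′ end of the 5283-nt span (chr6:74225473-74230755, minus strand), in 8 stretches of 455 nt in all. The 3′-most 25% of the span held 43.6%, 40.7% and 45.3% of the called bases. The last 2058 nt of the span, as long as the 3′ UTR of the transcript used, held 68.2%, 62.3% and 66.2%. The highest combined score, 12.12, was at chr6:74225781-74225850, but its rank varied, with replicate percentiles of 41.0, 89.9 and 95.7. The widest site, chr6:74226151-74226455, spanned 305 nt in the combined list, had a LOD of 8.27 and peaked at percentiles 81.4, 82.3 and 39.7. Farther upstream, chr6:74227256-74227410 had a LOD of 7.50 and chr6:74227661-74227720 had 10.04, with replicate percentiles of 35.6, 35.9 and 54.6 for the one and 41.1, 66.5 and 10.6 for the other. EEF1A1 alone supplied 38 of the 88 member sites in the replicate lists, so totals over the 7 genes lean on it.

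All recurrent sites of RPLP0 lay away from the 3′ end, whereas ACTB, ACTG1, TUBB and EEF1A1 each had at least 1 near it. ACTG1, TUBB and EEF1A1 had recurrent sites farther away as well. Its bases called in all 3 replicates, 140 nt, lay between 1697 and 3832 nt from the 3′ end of a 4550-nt span (chr12:120634489-120639038, minus strand). The 3′-most 25% of the span held 11.8%, 8.98% and 16.1% of the called bases, below each of the other covered genes in every replicate. The site chr12:120636176-120636230 had a combined LOD of 16.18, the highest of the 47 member sites. Its replicate scores of 8.37, 7.24 and 5.89 stood at percentiles 92.3, 92.9 and 91.4, and their SD of 0.78 was the smallest among the named sites found in all 3 replicates. Also found in every replicate were chr12:120638231-120638330, with a LOD of 9.76 and percentiles of 78.3, 72.8 and 25.6, and chr12:120637561-120637645, with 5.84 and 50.8, 8.58 and 9.97. A site at the very end of the gene, chr12:120634461-120634510, reached 28 nt beyond the span and was found in replicates 2 and 3 only. The p filter kept it. Exon and intron positions on hg19 were not used here, so none of these sites is placed in an exon, intron or UTR.

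**Figure D3:**
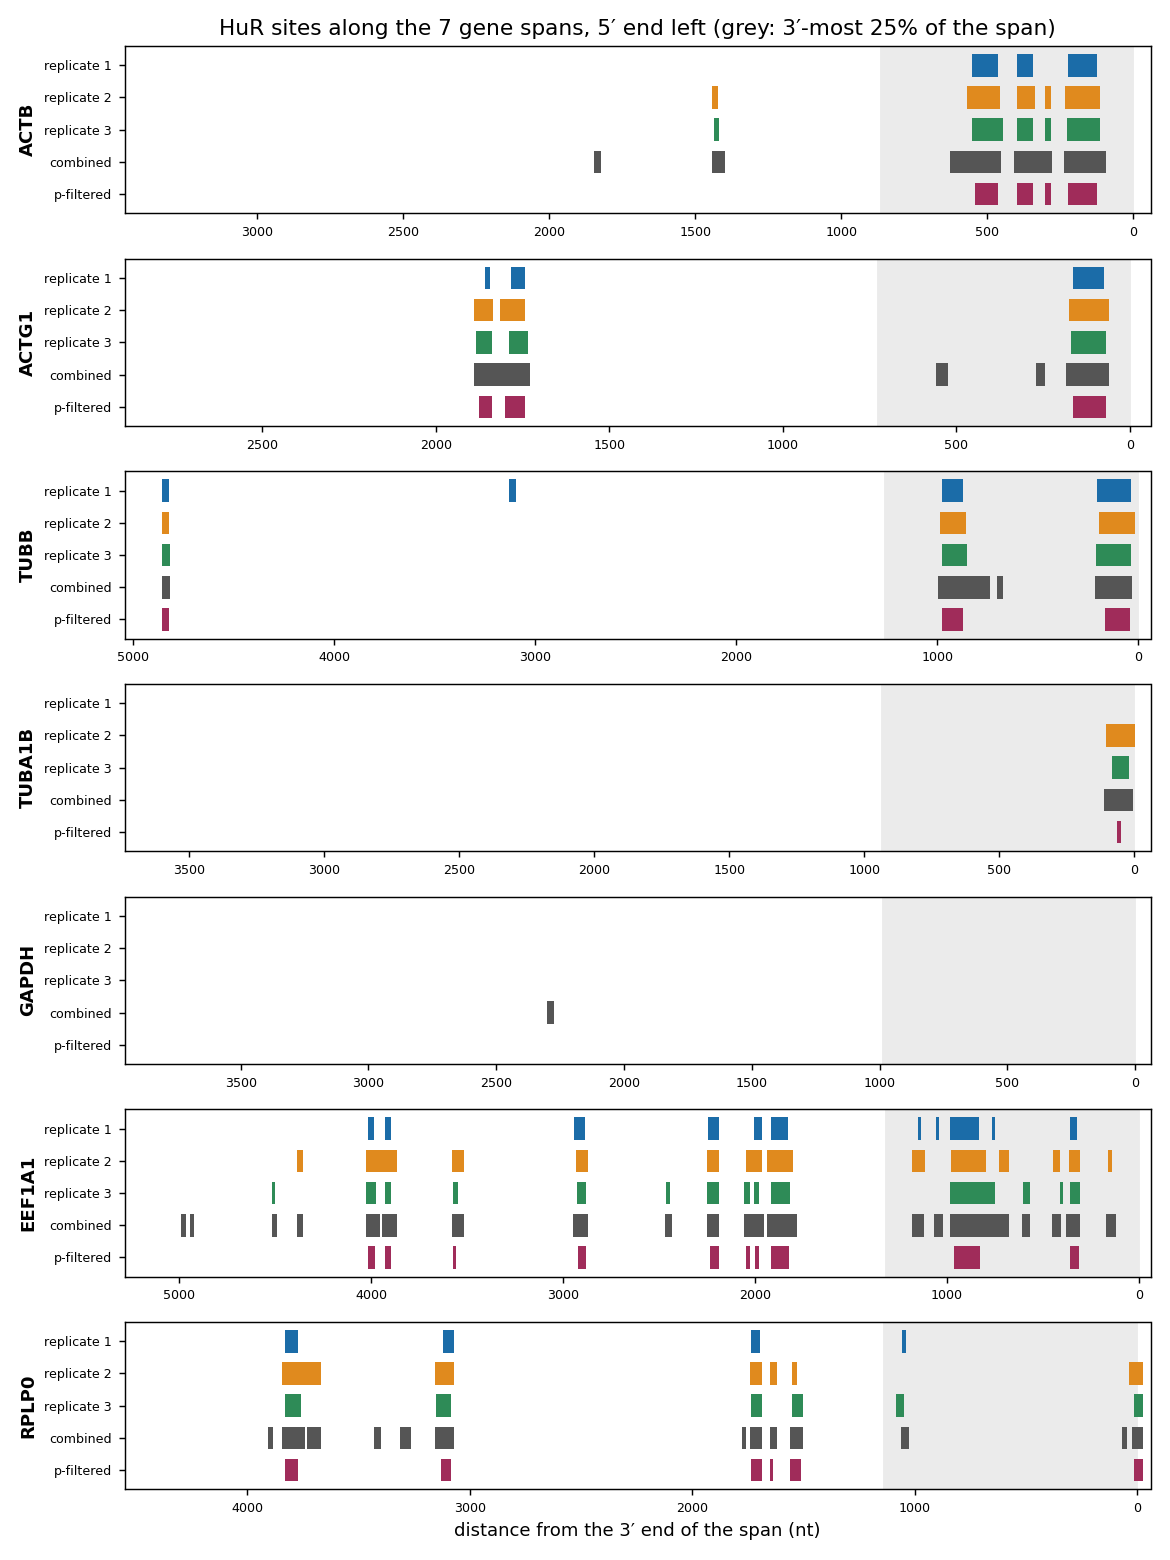
HuR sites of the 7 genes in the 3 replicate lists, the combined list and the p-filtered list, drawn to scale against the distance from the 3′ end of the span in nt, with the 5′ end at the left and the 3′-most 25% shaded. ACTB sites crowd the 3′-most 25%, EEF1A1 sites run along the span, RPLP0 sites lie mostly outside the 3′-most 25%, and GAPDH shows 1 combined interval.

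The U-rich windows printed above can be set beside the sites by distance from the 3′ end, in each gene's own model. This comparison was chosen after the positions were seen. It assumes that the mRNA and the span end at the same base and that no intron lies between, which was not tested, since transcripts and sites are on different builds. For ACTB the gene model behind the mRNA and the span were both 3454 nt long, and for EEF1A1, RPLP0 and ACTG1 they differed by 2, 24 and 25 nt. For GAPDH, TUBA1B and TUBB they differed by 127, 124 and 183 nt, more than the 30-nt window. The gaps of 24 and 25 nt for RPLP0 and ACTG1 are most of a window. For every gene with a gap, equal distances therefore need not mark the same bases. The ACTB window lay 476 to 506 nt from the end of the mRNA, and all 30 nt at that distance from the end of the span were called in each replicate. The same was true for ACTG1 at 124 to 154 nt, for TUBB at 907 to 937 nt and for EEF1A1 at 835 to 865 nt. For TUBA1B, at 35 to 65 nt, 0, 30 and 30 nt were called in replicates 1, 2 and 3, and for RPLP0, at 1 to 31 nt, 0, 30 and 11 nt. For GAPDH, at 65 to 95 nt, none was called. Over the whole length of the 3′ UTR, counted back from the end of the span, 40.8%, 51.7% and 49.2% of bases were called for ACTB. For TUBB the shares were 26.2%, 29.6% and 28.7%, for EEF1A1 18.2%, 30.9% and 23.8%, and for ACTG1 12.5%, 16.0% and 13.9%. TUBA1B, with its 176-nt 3′ UTR, had 0%, 59.1% and 36.9%, in replicate 2 above ACTB, and RPLP0, with 87 nt, had 0%, 42.5% and 13.8%. GAPDH had 0% in each replicate.

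Cytoskeletal genes as a group were not covered more than the others. The mean share of span called over ACTB, ACTG1, TUBB and TUBA1B was 4.71%, 6.84% and 6.10%, against 4.72%, 9.45% and 6.81% over GAPDH, EEF1A1 and RPLP0. The difference was -1.11 ± 1.35 percentage points (SD, n = 3; exact sign-flip p = 0.25), smaller than its spread. Its sign was not stable, since the difference was 2.68 points without EEF1A1 and 0.42 points with lists of equal size. Each group held a gene with a share below the rest of its group. TUBA1B had 0%, 2.78% and 1.74% in the one, and GAPDH had 0% in every replicate in the other.

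With all sites of each list, sites on these genes were found in all 3 replicates, or in none, at higher shares than sites of the whole combined list. The excess in all 3 was absent when the replicate lists were limited to equal numbers of their highest-scoring sites. Of the 47 combined member sites, 19 (40.4%, 95% Wilson interval 27.6 to 54.7) overlapped all 3 replicate lists, against 22.9% of all combined sites. A further 8 (17.0%) overlapped 2 lists, against 30%, and 8 (17.0%) overlapped 1, against 36.2%. The remaining 12 (25.5%, interval 15.3 to 39.5) overlapped none, against 11%. Intervals cover counting error only and treat sites of 1 gene as independent, and no test was made. Of member sites in replicates 1, 2 and 3, 80.0%, 61.3% and 62.5% overlapped both other lists, against 89.1%, 37.8% and 28.4% of all sites of those lists. Counted in bases, 1280 of 2776 nt called in any replicate (46.1%) were called in all 3, against 21.8% of 37.5 Mb in the whole series. The share was 73.8% for TUBB, 71.0% for ACTB and 58.0% for ACTG1, but 38.1% for EEF1A1, 29.0% for RPLP0 and 0% for TUBA1B. With each replicate list limited to its 186157 highest-scoring sites, 22.7% of member bases were called in all 3 replicates, against 22.6% in the whole series. The combined list was left whole in that setting, and 12.8% of its member sites overlapped all 3 limited lists, against 13.1% of all. At LOD above 2 the shares of bases were 55.1% for the members and 21.1% for the whole series. The Jaccard index of called member bases was 52.1% between replicates 1 and 2, 63.9% between 1 and 3 and 62.3% between 2 and 3, against 31.9%, 25.8% and 56.6% for all bases.

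**Figure D4:**
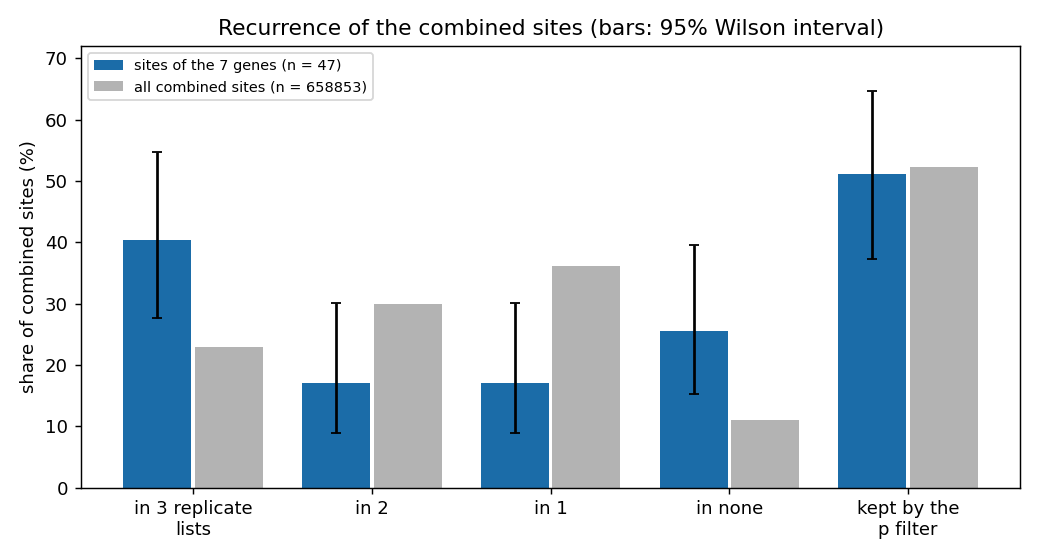
Share of combined sites found in 3, 2, 1 or no replicate list and share kept by the p filter, for the 47 sites of the 7 genes (blue, with 95% Wilson intervals) and for all 658853 combined sites (grey). The member sites have larger shares at 3 lists (40.4%) and at none (25.5%), and a like share kept by the p filter (51.1%).

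In the replicate and combined lists most member sites scored below the median of their list, while the highest-scoring site of 5 genes stood above it. Member sites had a median percentile of 41.0 in replicate 1, 13.5 in replicate 2 and 18.1 in replicate 3, on average 24.2 ± 14.7 (SD, n = 3), where 50 is the median of each list. EEF1A1 supplied 38 of the 88 sites. Without it, an alternative chosen after seeing the data, the average was 34.8 ± 14.3 (SD, n = 3). Of the member sites, 40%, 32.3% and 31.2% scored above the median of their list, against 50%, 49.9% and 50% of all sites. In the combined list 13 of 47 (27.7%) did, against 50%. In the p-filtered list the 27 member intervals had a median percentile of 54.7, above the median of that list. With each replicate list limited to its 186157 highest-scoring sites and percentiles taken within the limited lists, an alternative chosen after seeing the data, the median percentile averaged 65.3 ± 21.03 (SD, n = 3), above 50. The highest percentile of each gene averaged 96.1 ± 1.51 for ACTB, 92.2 ± 0.78 for RPLP0, 89.0 ± 7.17 for EEF1A1, 83.1 ± 8.93 for TUBB and 81.9 ± 1.02 for ACTG1 (SD, n = 3 each). Each is the highest of several sites of a gene, so it tends to lie above 50 by selection, and its height was not tested. At EEF1A1 and ACTB the highest site was not the same one in all replicates.

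**Figure D5:**
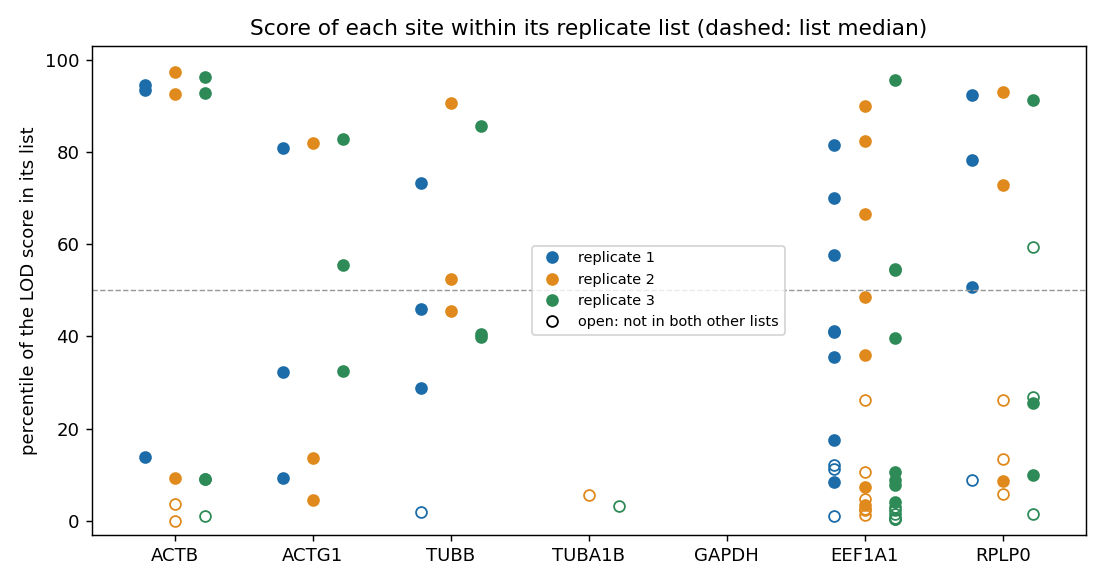
Percentile of every member site's LOD score within its own replicate list, by gene and replicate (colours); open circles are sites not found in both other lists and the dashed line is the list median. ACTB and RPLP0 each have a site above percentile 90 in all 3 replicates, while open circles lie mostly below percentile 30.

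A combined site was counted as kept when a p-filtered interval overlapped it on its strand by at least 1 nt. At the members, p-filtered intervals had other scores than the combined sites they overlapped, and often other ends. The authors' p filter kept 24 of the 47 combined member sites (51.1%, 95% Wilson interval 37.2 to 64.7), against 52.3% of all combined sites. It kept all 19 found in 3 replicates, where it kept 98.1% over the whole list, and 4 of 8 found in 2, against 66.6%. It kept 1 of 8 found in 1 replicate, against 24.2%, and 0 of 12 found in none, against 10.4%. By gene it kept 9 of 19 for EEF1A1, 6 of 13 for RPLP0, 3 of 5 for ACTB, 3 of 4 for TUBB, 2 of 4 for ACTG1, 1 of 1 for TUBA1B and 0 of 1 for GAPDH. Among the 27 p-filtered member intervals, 1 reached the top 1% of scores, at ACTB with a LOD of 24.57 and percentile 99.5. The combined site it overlapped had a LOD of 12.44. Sites wider than 200 nt numbered 2 of 47 in the combined list (4.26%), at EEF1A1 and TUBB, against 2.06% of all combined sites. None of the 47 overlapped an opposite-strand combined site, against 0.887% of all.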

How the data were processed

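DO-RIP-seq reads of 3 HuR immunoprecipitations were handled by the authors with cutadapt 1.0 and TopHat2 2.0.8 on hg19 (GRCh37), per the submitters' processing notes. The deposited lists give the authors' LOD score per interval; no source used here says how intervals and scores were made or how deep the libraries were. Interval ends lie on a 5-nt grid. Titles gave each sample's group and replicate number; the negative controls were not analysed here as separate values. Coordinates are 1-based on hg19.

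Gene spans were taken as given for the members, and sites were matched on the same strand by an overlap of at least 1 nt. Bases called were merged per span, scores were ranked within their own list, and shares carry 95% Wilson intervals. Gene differences were taken within each replicate, with an exact two-sided sign-flip test. Letters of 3′ UTRs come from GENCODE 29 transcripts (GRCh38), and no coordinates were converted. Values were computed with numpy 2.4.6 and pandas 2.3.3 in Python 3.11.15. Overlap and base counts were tested on 1206 simulated sites, with 0 errors.

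The members and lists were chosen with earlier results of these data known. All 7 members are named. The sites named for each are the highest-scoring combined site and up to 3 more found in all 3 replicates, by bases called in all 3; the sites chr7:5568176-5568220 and chr12:120634461-120634510 and the p-filtered ACTB interval were chosen after their values were seen. Alternatives were score thresholds, equal list sizes, stricter overlap, other 3′ parts, other windows and leaving out each replicate.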

Additional observations from a re-analysis of the deposited data

How the results depend on the processing

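Of 78 alternative values for 11 results, 50 counted as unchanged, 26 moved and 2 reversed. Unchanged meant the same direction for gene differences, and a value within the spread or interval of the main value for other results. Sites per replicate had a wider limit, set on the ratio to the main value. There, 24.3 at LOD above 1 and 21.3 at LOD above 2 counted as unchanged beside 29.3 ± 3.79 (SD, n = 3). The causes of moved and reversed values were not tested unless given. With each replicate list limited to its 186157 highest-scoring sites, member sites fell to 13.3 per replicate and the share of span bases called to 3.24%. In the same setting 22.7% of member bases and 12.8% of combined sites were found in all 3 replicates, and the 3′-most 25% held 68.1% of called bases. The median percentile was 74.4 in the full lists and 65.3 within the limited lists. Replicate 1, whose list this limit left unchanged, stayed at 41.0. The cytoskeletal difference turned to 0.42 points. At LOD above 1, the shares found in all 3 were 51.8% of bases and 55.9% of combined sites, and the p filter kept 70.6%. At LOD above 2 these were 55.1%, 63.0% and 88.9%, the median percentile was 44.2 in the full lists and 39.5 within the limited ones, and TUBA1B had no site in a replicate. Percentiles in the full lists can only rise when low-scoring sites are left out; those within the limited lists were added after seeing the data. With at least 50% of each interval shared, 25.5% were found in all 3 and 29.8% were kept; of p-filtered sites, 74.1% were found in all 3. The last 500 nt held 33.1% of called bases. Without EEF1A1, an alternative chosen after seeing the data, there were 16.7 sites per replicate, 4.98% of span bases called, 52.2% of bases in all 3, 65.7% in the 3′-most 25% and a cytoskeletal difference of 2.68 points. Without each replicate in turn, bases found in all remaining lists ranged from 52.1% to 63.9%, which needs 2 lists in place of 3. Unknown depth limits every statement on missing sites. No paired analysis was possible because the negative control samples have no values in the files used here.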
